A study of Mus musculus with 8 samples.

Results

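Loss of the transcription factor NFIX was compared with wild type (WT) in mouse hair follicle stem cells by RNA sequencing. The comparison used 4 of the 8 libraries of the series, chosen by label: NFIX-cKO 32 and NFIX-cKO 88 against WT 34 and WT 82, where the number is the animal number of the title. All mice were male, at postnatal day 70, when the follicles of the back skin rest. WT mice carried NFIBfl/fl;NFIXfl/fl;R26-YFPfl/fl and no Cre in their label. NFIX-cKO mice carried NFIXfl/fl with R26-YFPfl/fl and the transgene Sox9-CreER, in which the Sox9 promoter drives a tamoxifen-inducible Cre, and also NFIBfl/+, so they had 1 floxed Nfib allele. The other groups were NFIB-cKO (Sox9-CreER;NFIBfl/fl;R26-YFPfl/fl, animals 81 and 85) and NFIB/X-dKO (NFIBfl/fl and NFIXfl/fl, with Sox9-CreER and R26-YFPfl/fl, animals 33 and 36), and they were used to estimate the spread and for side by side values. Cells of every group were sorted as negative for DAPI and Sca-1 and positive for integrin alpha 6 and CD34, and those of the knockout groups were also gated on YFP. Genotype, presence of Sox9-CreER and the YFP gate therefore cannot be told apart between NFIX-cKO and WT. Loss of NFIX also cannot be told apart from loss of the 1 floxed Nfib allele that NFIX-cKO mice carried. When Cre was induced was not given in the sources used here.

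NFIX is a member of the nuclear factor I family, whose members (Nfia, Nfib, Nfic and Nfix) bind a palindromic DNA site with a TTGGC arm on each strand as dimers. Hair follicle stem cells sit in the bulge, the lower permanent part of the follicle, and rest there between growth phases. NFIB and NFIX are known as stem cell transcription factors of the bulge, and NFIB is known for restraining a signal from the stem cells to neighbouring pigment cell precursors.

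Values are TPM, a level scaled for transcript length and library size. A change is the mean of the 2 pair differences, NFIX-cKO 32 minus WT 34 and NFIX-cKO 88 minus WT 82, in log2(TPM + 1), with the standard error (SE) and adjusted p of limma. That scale understates the change of weakly expressed genes. Only genes with an adjusted p under 0.05 are said to have risen or fallen. Since 2 libraries stood in each group and nothing in the labels names separate cultures, the p-values measure the spread between these animals alone. An exact permutation test of 2 libraries against 2 cannot go below 0.333.

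The libraries held the markers of the sorted cells. Cd34 read 1144 and 929.0 TPM in WT and 1079 and 1072 TPM in NFIX-cKO, Itga6 (integrin alpha 6) read 143 and 124 against 167 and 134 TPM, and the bulge keratin Krt15 read between 11904 and 14487 TPM in these 4 libraries. Ly6a, which encodes Sca-1 and was sorted against, read 11.9 and 10.3 TPM in WT and 36.9 and 10.9 TPM in NFIX-cKO, so NFIX-cKO 32 was the highest. Markers of other cell types ranged from low to high. Of 12 immune genes, 5 passed the filter on low levels, with a sum of 31.3 to 31.6 TPM in WT and 21.7 to 22.3 TPM in NFIX-cKO. Ptprc, Cd3e and Csf1r were below the filter. For fibroblasts and dermal papilla, 4 of 12 genes passed the filter, with a sum of 212 to 227 TPM in WT and 184 to 194 TPM in NFIX-cKO. The 8 below the filter, Pdgfra, Dcn, Lum and Corin among them, read at most 0.45 TPM in these 4 libraries. Nearly all of the sum thus came from the 4 that passed. For endothelium, muscle, nerve and blood the sums were 21.3 to 26.1 TPM in WT and 10.1 to 25.9 TPM in NFIX-cKO, and Des was at 0 in all 4. For Merkel cells, 1 of 7 genes passed the filter and Isl1 was at 0 in all 4. Pigment cell markers summed to 68.6 to 87.6 TPM in WT and 65.9 to 68.5 TPM in NFIX-cKO, most of it from Mitf. Markers of sebaceous gland, isthmus and interfollicular epidermis were not low, with a sum of 1612 to 1972 TPM in WT and 1199 to 3047 TPM in NFIX-cKO. Expected counts totalled 57826281 reads in NFIX-cKO 32 and 63773522 in NFIX-cKO 88, and the depth of the WT libraries was unknown.

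The targeted gene was examined before any other. Nfix (chr8:84699876-84800344, GRCm38) read 158.0 and 157 TPM in WT 34 and WT 82 and 138 and 123 TPM in NFIX-cKO 32 and 88. Both NFIX-cKO libraries lay below both WT libraries, by -0.27 ± 0.11, and the difference did not pass the test (adjusted p = 0.301). The labels do not say which part of the gene is floxed, and reads from the remaining exons count towards the total, so the Nfix total does not check the label of these libraries. Nfib, of which NFIX-cKO mice carried 1 floxed allele, read 229.6 and 209 TPM in WT and 200 and 148 TPM in NFIX-cKO, a difference of -0.35 ± 0.14 (adjusted p = 0.294). Nfia and Nfic differed by -0.25 ± 0.14 and -0.17 ± 0.11, with adjusted p of 0.436 and 0.482. All 4 family members were thus lower on average in NFIX-cKO and 0 of 4 passed limma's test, with 2 at an unadjusted p under 0.05.

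Across the genome, 15434 genes passed the filter of at least 1 TPM in at least 2 of the 8 libraries. Of these, 44 passed the test (0.285%), 16 higher (0.104%) and 28 lower (0.181%) in NFIX-cKO, while 2527 had an unadjusted p under 0.05. Of the 2527, 809 were higher and 1718 lower, and of all genes tested 6413 were higher and 8997 lower on average. Both NFIX-cKO libraries lay above both WT libraries in 1488 genes (9.64%) and below them in 2500 genes (16.2%). By gene type, 21 of 12404 protein-coding genes passed, 7 higher and 14 lower, as did 13 of 622 pseudogenes, 3 of 479 microRNA genes, 5 of 1447 long non-coding genes and 2 of 22 mitochondrial transfer RNA genes. These calls depended on the libraries kept and on the form of the fit. Without WT 34 or NFIX-cKO 32 the change rested on the 80s pair alone. Without WT 82 or NFIX-cKO 88 it rested on the 30s pair alone. Leaving out 1 of these libraries thus removed a whole pair, fewer genes passed, and the protein-coding calls were lost. NFIB-cKO 81 and 85 and NFIB/X-dKO 33 and 36 inform only the spread in this comparison. Leaving out any of them also lowered the number of genes that passed, and most protein-coding calls were lost. Without NFIB/X-dKO 33 or 36, the only coding call that remained was Esr1. Most coding calls thus rested on the spread of libraries outside the comparison. With the 4 compared libraries alone 8 genes passed, and 1 with the series as a block in that fit, neither protein coding. Without the series term 23 genes passed, 13 higher and 10 lower, 7 of them protein coding, and without a filter on low values 25 passed, 3 of them protein coding. With either animal series alone, each compared group held 1 library. The spread then came from the NFIB/X-dKO pair (30s) or the NFIB-cKO pair (80s), so calls are not counted. Many of the calls above did not hold in the other fits of this paragraph.

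**Figure D1:**
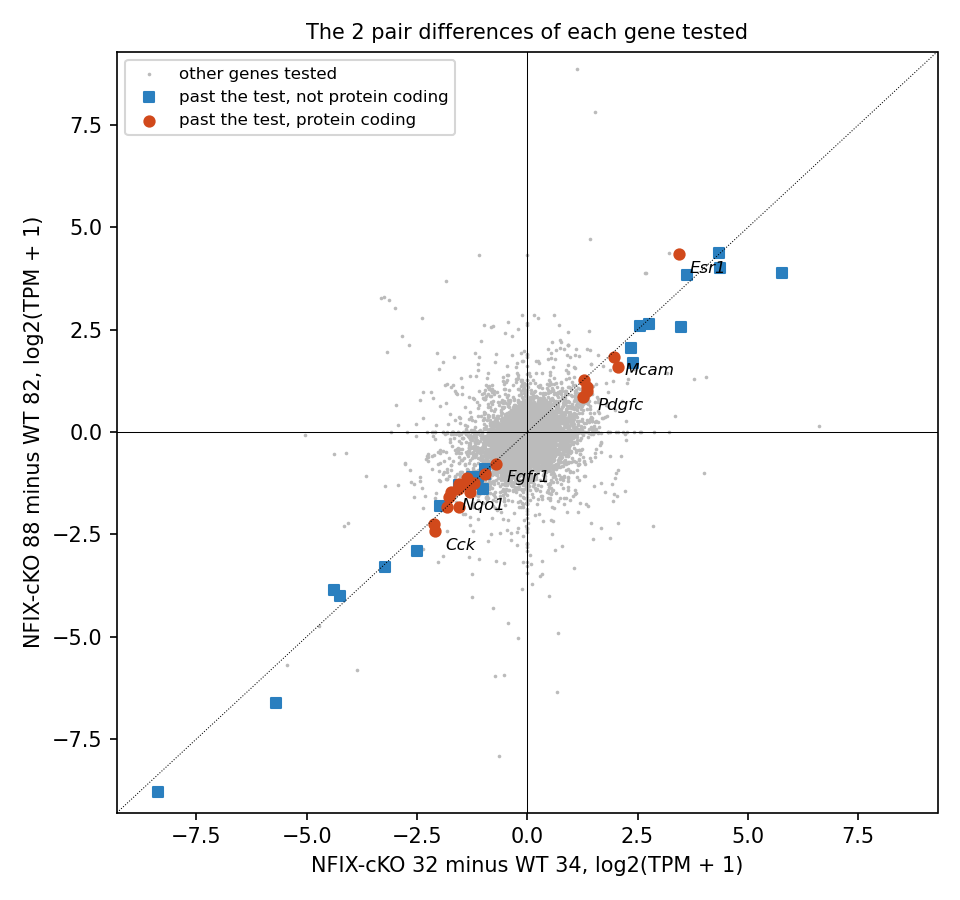
Each point is 1 of 15434 genes tested, with the difference NFIX-cKO 32 minus WT 34 on the x axis and NFIX-cKO 88 minus WT 82 on the y axis, both in log2(TPM + 1); the dotted line marks equal differences. The 21 protein-coding genes past the test (orange circles) and the other calls (blue squares) have both differences of the same sign, and the other genes (grey) spread around 0.

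Among the named protein-coding rises, Esr1 aside, the largest were in Mcam, Piezo2 and Tmem176a. Mcam (chr9:44134469-44142727), a cell adhesion molecule of the immunoglobulin superfamily, read 2.88 and 2.69 TPM in WT 34 and WT 82 and 14.2 and 12.2 TPM in NFIX-cKO 32 and 88. It rose by 1.91 ± 0.18 (adjusted p = 0.0294), with both NFIX-cKO libraries above both WT libraries. Piezo2 (chr18:63010213-63387183), a mechanically gated cation channel, read 1.79 and 2.18 TPM in WT and 10.7 and 8.58 TPM in NFIX-cKO and rose by 1.83 ± 0.17 (adjusted p = 0.0294). Its level stayed low beside that of most genes named here. Tmem176a (chr6:48840919-48847071), a transmembrane protein gene, read 22.6 and 26.7 TPM in WT and 56.9 and 65.4 TPM in NFIX-cKO. Its change of 1.28 ± 0.10 (adjusted p = 0.0147) was nearly the same in the pairs, at 1.29 and 1.26. Tmem176a overlaps its neighbour Tmem176b on the other strand by 578 bases, and whether the counting used strand was not given in the sources used here. Tmem176b itself read 90.5 and 84.0 TPM in WT and 130.3 and 136 TPM in NFIX-cKO, a difference of 0.61 ± 0.09 that did not pass the test (adjusted p = 0.0843).

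Pdgfc, Ramp3, Hs3st6 and Esr1 also rose. Pdgfc (chr3:81036416-81214040), a platelet-derived growth factor ligand, read 10.8 and 16.4 TPM in WT and 29.1 and 33.7 TPM in NFIX-cKO and rose by 1.17 ± 0.13 (adjusted p = 0.0495). Ramp3 (chr11:6658521-6677475), which pairs with calcitonin-family receptors, read 22.3 and 15.1 TPM in WT and 54.5 and 28.2 TPM in NFIX-cKO and rose by 1.06 ± 0.12 (adjusted p = 0.0495). The groups did not overlap, and NFIX-cKO 32 stood well above NFIX-cKO 88. Hs3st6 (chr17:24752988-24758684), a heparan sulphate sulphotransferase, read 16.9 and 18.4 TPM in WT and 44.6 and 40.6 TPM in NFIX-cKO and rose by 1.23 ± 0.12 (adjusted p = 0.0358). Esr1 (chr10:4611593-5005614), the oestrogen receptor alpha gene, read 0.47 and 0.33 TPM in WT and 15.1 and 26.1 TPM in NFIX-cKO, a rise of 3.90 ± 0.28 (adjusted p = 0.0110). Sox9-CreER joins Cre to a part of an oestrogen receptor, reads from that part were not told apart from the mouse's own Esr1, and Esr1 read 12.6 to 32.4 TPM in the 4 other libraries with the transgene. Transgene and mouse Esr1 cannot be told apart in this value.

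The largest protein-coding falls among the named genes were in a secreted peptide and a signalling exchange factor. Cck (chr9:121489824-121495694), which encodes the peptide hormone cholecystokinin, read 63.2 and 35.2 TPM in WT and 14.0 and 5.73 TPM in NFIX-cKO and fell by 2.26 ± 0.16 (adjusted p = 0.0110). In each pair the NFIX-cKO library was far below its WT library, and the groups did not overlap. Ngef (chr1:87476834-87573870), a guanine nucleotide exchange factor that acts downstream of ephrin receptors, read 16.2 and 10.8 TPM in WT and 3.86 and 2.31 TPM in NFIX-cKO and fell by 1.83 ± 0.15 (adjusted p = 0.0181). Its span overlaps Neu2 on the other strand, and Neu2 read at most 1.2 TPM in these 4 libraries. Mgll (chr6:88724412-88828360), the monoglyceride lipase that breaks down 2-arachidonoylglycerol, read 37.1 and 53.8 TPM in WT and 18.7 and 25.9 TPM in NFIX-cKO and fell by 0.99 ± 0.09 (adjusted p = 0.0237). The pair differences of Mgll were -0.95 and -1.03.

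The enzyme genes Nqo1 and Akr1c18 fell. Nqo1 (chr8:107388225-107403206), a quinone reductase and a classic target of the oxidative stress factor NRF2, read 25.9 and 16.3 TPM in WT and 7.13 and 5.32 TPM in NFIX-cKO and fell by 1.59 ± 0.11 (adjusted p = 0.0110). Akr1c18 (chr13:4132615-4150654), an aldo-keto reductase that inactivates progesterone, read 14.6 and 5.96 TPM in WT and 4.34 and 0.94 TPM in NFIX-cKO and fell by 1.70 ± 0.18 (adjusted p = 0.0392). The expected counts behind the NFIX-cKO values of Akr1c18 were 194 and 48 reads, the lower in NFIX-cKO 88, and its WT libraries also differed from each other.

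Id2, Cebpd and Fgfr1 also fell. Id2 (chr12:25093799-25097140), an inhibitor of basic helix-loop-helix factors and a target of BMP signalling, read 359.9 and 517 TPM in WT and 139.7 and 237 TPM in NFIX-cKO and fell by 1.24 ± 0.11 (adjusted p = 0.0258). Cebpd (chr16:15887286-15891031), a leucine zipper transcription factor, read 114 and 204 TPM in WT and 38.4 and 84.3 TPM in NFIX-cKO and fell by 1.40 ± 0.12 (adjusted p = 0.0209). For both genes the 80s library was the higher of each group, and no NFIX-cKO library reached a WT library. Cebpd overlaps Spidr on the other strand by 1808 bases, and Spidr read 12.4 to 16.7 TPM in these 4 libraries. Fgfr1 (chr8:25513654-25575718), a fibroblast growth factor receptor, read 320.5 and 399 TPM in WT and 195 and 234 TPM in NFIX-cKO and fell by 0.74 ± 0.08 (adjusted p = 0.0389), with pair differences of -0.71 and -0.77.

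Arvcf and Sdk2 fell as well. Arvcf (chr16:18348182-18407076), a catenin of the p120 family that binds cadherins at cell junctions, read 89.0 and 74.7 TPM in WT and 34.8 and 29.2 TPM in NFIX-cKO and fell by 1.33 ± 0.09 (adjusted p = 0.00985). The pair differences were -1.33 and -1.32. Sdk2 (chr11:113776374-114067046), a homophilic adhesion molecule known from synapses, read 22.3 and 12.4 TPM in WT and 8.49 and 3.90 TPM in NFIX-cKO and fell by 1.38 ± 0.14 (adjusted p = 0.0369).

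**Figure D2:**
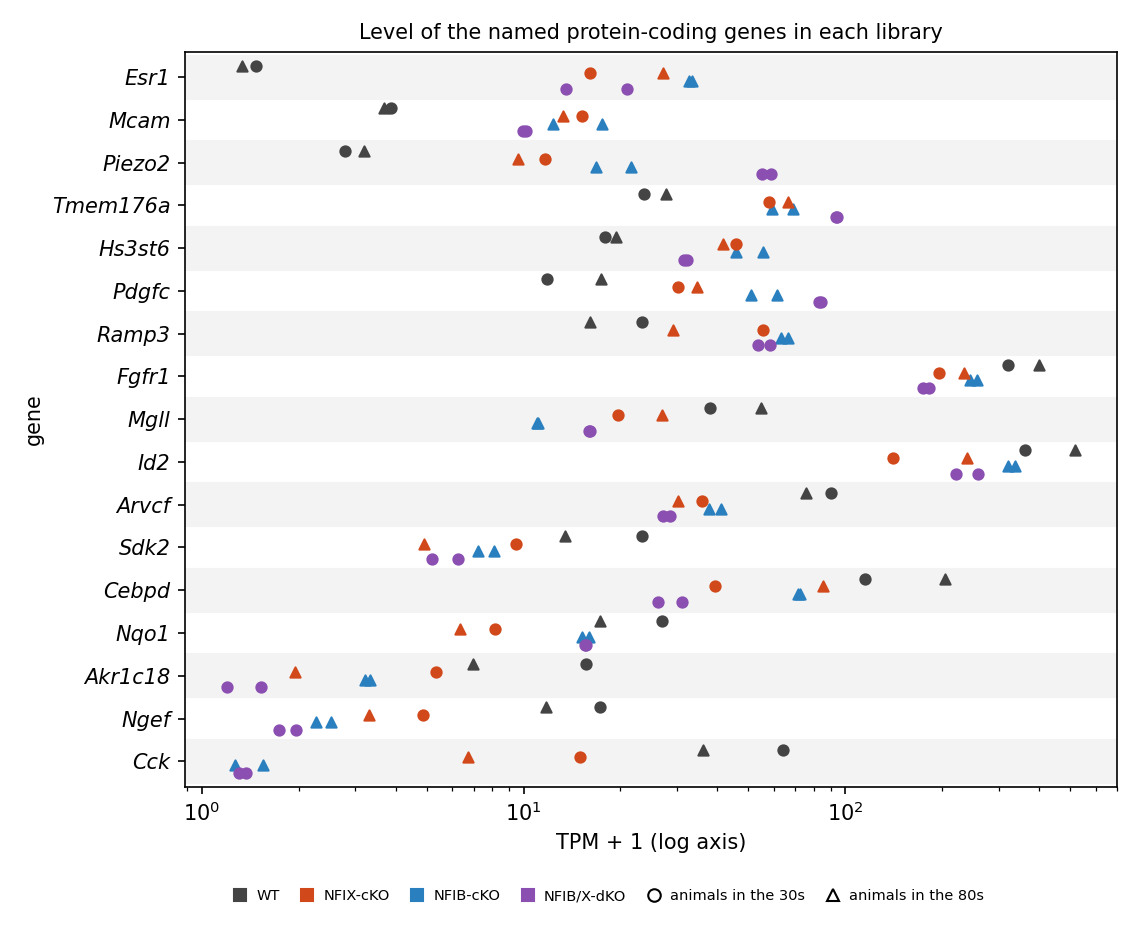
Each row is a named protein-coding gene past the test, ordered by its change, each symbol is 1 library, and the x axis is TPM + 1 on a log axis. NFIX-cKO (orange) lies to the right of WT (dark grey) for the 7 upper genes, from Esr1 (0.47 and 0.33 against 15.1 and 26.1 TPM) to Ramp3, and to the left for the 10 lower genes, from Fgfr1 to Cck.

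The remaining 4 protein-coding calls fell outside the naming rule and are given after their values were seen. Pde9a, a cyclic GMP phosphodiesterase, read 4.14 and 4.06 TPM in WT and 0.18 and 0.07 TPM in NFIX-cKO and fell by 2.18 ± 0.19 (adjusted p = 0.0209), with expected counts of 7 and 4 reads in NFIX-cKO. Smpdl3b, a phosphodiesterase of the acid sphingomyelinase-like family, fell by 1.23 ± 0.13 (adjusted p = 0.0369). Its groups overlapped, with 30.4 and 12.3 TPM in WT and 12.6 and 4.61 TPM in NFIX-cKO, so its call came from the pairing. Gm13305 and Gm13306, adjacent predicted genes on chromosome 4, fell by 1.48 ± 0.16 and 1.68 ± 0.17 (adjusted p = 0.0415 and 0.0369). Gm13306 read 1020 and 753 TPM in WT and 296 and 251 TPM in NFIX-cKO. Near-identical copies of such genes could share reads, so both values are uncertain.

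The start regions of the coding calls were searched for the sequence that NFI factors bind. RefSeq windows (GRCm38.p6, 250 bases before to 50 after a gene's start) were matched for 16 of the 21 genes, 24 windows in all. A single TTGGC arm, searched on both strands, occurred in 13 of these windows and in 46.7% of 32851 windows of the same length, and the full site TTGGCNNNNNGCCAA in 0 of the 24 and in 0.0365% of all windows. Any full site also counts as 2 arms. The 250 bases before the start are shown for 3 genes that fell, chosen after their values were seen as examples with and without an arm, with each arm in capitals.

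Nqo1 (chr8:107403206-107403455, minus strand): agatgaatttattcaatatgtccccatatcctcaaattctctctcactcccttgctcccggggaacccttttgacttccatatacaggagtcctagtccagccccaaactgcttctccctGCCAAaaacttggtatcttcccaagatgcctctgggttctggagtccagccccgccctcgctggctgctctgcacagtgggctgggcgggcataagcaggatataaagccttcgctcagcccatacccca
Id2 (chr12:25096093-25096342, minus strand): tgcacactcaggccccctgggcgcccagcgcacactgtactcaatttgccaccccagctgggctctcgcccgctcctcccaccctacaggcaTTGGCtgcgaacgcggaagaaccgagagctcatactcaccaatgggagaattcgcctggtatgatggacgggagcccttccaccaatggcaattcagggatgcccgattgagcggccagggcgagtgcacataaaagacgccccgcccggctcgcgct
Cck (chr9:121495695-121495944, minus strand): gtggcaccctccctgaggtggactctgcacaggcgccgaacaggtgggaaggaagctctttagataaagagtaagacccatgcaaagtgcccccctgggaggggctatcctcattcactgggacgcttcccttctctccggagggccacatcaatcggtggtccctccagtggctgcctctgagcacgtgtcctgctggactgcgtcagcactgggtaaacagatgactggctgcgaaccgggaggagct

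The arm in the Nqo1 window began at base -130 from the start, reading GCCAA on the strand shown, and that in the Id2 window began at base -158, reading TTGGC. The Cck window held none, although Cck showed the larger fall. These matches describe letters only.

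The 3 genes of a microRNA cluster on chromosome 8 fell. Mir23a, Mir27a and Mir24-2 lie within chr8:84208518-84208921, 490955 bases from Nfix, and are processed from 1 primary transcript. Their annotated hairpins are read here by messenger RNA sequencing, so the values are those of unprocessed transcript and not of mature microRNAs. The mature products are shown with the seed, bases 2 to 8, in capitals, since the seed decides which messages a microRNA pairs with. No 2 of the 6 share a seed.

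mmu-miR-23a-5p: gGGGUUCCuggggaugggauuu
mmu-miR-23a-3p: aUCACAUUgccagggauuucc
mmu-miR-27a-5p: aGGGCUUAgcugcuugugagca
mmu-miR-27a-3p: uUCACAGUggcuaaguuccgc
mmu-miR-24-2-5p: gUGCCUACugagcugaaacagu
mmu-miR-24-3p: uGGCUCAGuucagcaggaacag

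The sequences and positions are from RefSeq (GRCm38.p6). Mir23a read 109 and 117 TPM in WT and 36.4 and 47.0 TPM in NFIX-cKO and fell by 1.43 ± 0.12 (adjusted p = 0.0228). Mir27a read 185 and 193 TPM in WT and 75.8 and 79.4 TPM in NFIX-cKO and fell by 1.27 ± 0.13 (adjusted p = 0.0369). Mir24-2 read 113 and 156 TPM in WT and 51.4 and 72.2 TPM in NFIX-cKO and fell by 1.11 ± 0.13 (adjusted p = 0.0495). In none of the 3 did the groups overlap, and the NFIX-cKO values rested on 36 to 182 expected counts. Gm26532, a long non-coding gene that overlaps Mir24-2 by 2 bases on the same strand, read 306.8 and 331 TPM in WT and 141 and 174 TPM in NFIX-cKO, a difference of -1.02 ± 0.12 (adjusted p = 0.0530). These 3 microRNA genes, which share 1 primary transcript, were the calls among the 149 tested genes within 10 Mb of Nfix, beside 0.285% of all genes tested.

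Core regulators and markers of the bulge did not pass the test in NFIX-cKO. Foxc1, a forkhead factor that keeps the stem cells at rest, read 28.1 and 27.8 TPM in WT and 15.9 and 18.6 TPM in NFIX-cKO, a difference of -0.67 ± 0.12 (adjusted p = 0.131). Lgr5, a receptor for R-spondins, read 121 and 129 TPM in WT and 82.02 and 79.40 TPM in NFIX-cKO (-0.63 ± 0.21, adjusted p = 0.244). Krt24, a bulge keratin, read 460.2 and 353 TPM in WT and 248 and 261 TPM in NFIX-cKO (-0.66 ± 0.22, adjusted p = 0.244). For these 3 genes both NFIX-cKO libraries lay below both WT libraries. Lhx2, a LIM homeobox factor of stem cell identity, also lay lower in both, at 291 and 314 TPM in WT and 209.9 and 262 TPM in NFIX-cKO (-0.37 ± 0.11, adjusted p = 0.224).

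Sox9, which is needed to maintain the bulge and whose promoter drives the Cre, read 143 and 144 TPM in WT and 75.7 and 129 TPM in NFIX-cKO (-0.53 ± 0.29, adjusted p = 0.413). Its low value came from NFIX-cKO 32. The Wnt effectors Tcf7l2 and Tcf7l1 differed by -0.35 ± 0.12 and -0.10 ± 0.15, and the quiescence factor Nfatc1 by -0.26 ± 0.19, with adjusted p of 0.247, 0.765 and 0.530. Tbx1, a regulator of stem cell self-renewal, differed by 0.15 ± 0.14 and Cd34 by 0.06 ± 0.15 (adjusted p = 0.626 and 0.871), and the pairs of both genes had opposite signs. Krt15 and Itga6 differed by 0.18 ± 0.21 and 0.17 ± 0.10 (adjusted p = 0.720 and 0.459). Of the 30 genes in the list of hair follicle stem cell identity, 21 were lower and 9 higher on average, 10 lay lower and 3 higher without overlap (16.2% and 9.64% of all genes tested), and 0 passed limma's test, with 9 lower and 1 higher at an unadjusted p under 0.05. Of all 15434 genes tested, 8997 were lower on average, and 1718 were lower and 809 higher at that p. The list's median was -0.18, beside -0.05 for all genes tested. A difference of the size seen for Sox9 was not resolved with these libraries.

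**Figure D3:**
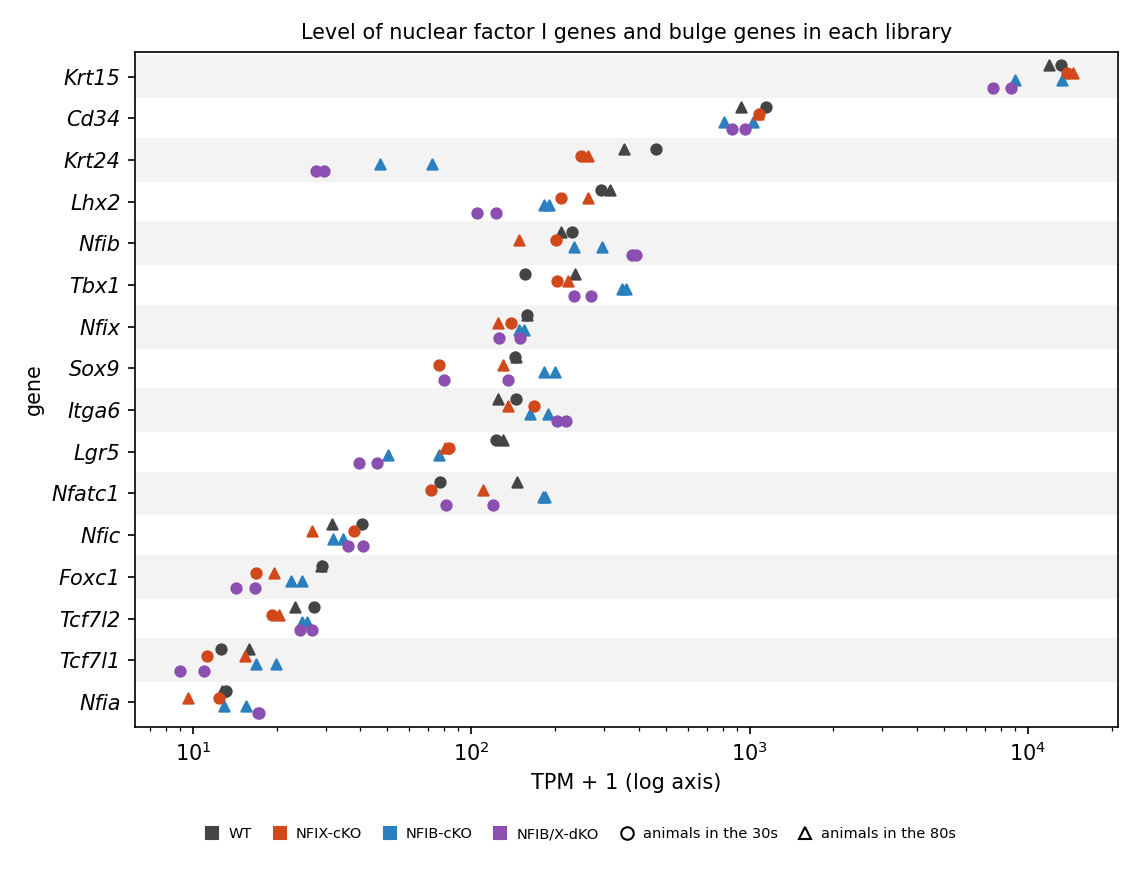
Levels of the nuclear factor I genes and of the bulge regulators and markers in each library, with TPM + 1 on a log axis, ordered by the WT mean; each symbol is 1 library. NFIX-cKO (orange) lies to the left of WT (dark grey) for Krt24, Lhx2, Lgr5, Foxc1, Sox9, Tcf7l2, Nfix, Nfib and Nfia. It lies to the right for Krt15, and the groups mix or overlap for Cd34, Tbx1, Itga6, Tcf7l1, Nfatc1 and Nfic.

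In BMP and TGF-beta signalling, ligands of the transforming growth factor family act through SMAD proteins and switch on the Id genes, and in the bulge BMP signals keep stem cells at rest. Of 38 genes tested, 1 fell, Id2, and 0 rose, beside 0.181% of all genes tested that fell and 0.104% that rose. The median was -0.12, beside -0.05 for all genes, with 25 lower and 13 higher on average. The other members with the smallest p did not pass. Ltbp2, which binds the extracellular matrix, read 89.0 and 52.6 TPM in WT and 16.2 and 19.9 TPM in NFIX-cKO (-1.87 ± 0.30, adjusted p = 0.0996). The ligand gene Tgfb3 read 20.7 and 20.1 TPM in WT and 55.7 and 37.3 TPM in NFIX-cKO (1.12 ± 0.20, adjusted p = 0.119), and the co-receptor gene Tgfbr3 read 6.96 and 4.14 against 3.32 and 2.02 TPM (-0.82 ± 0.14, adjusted p = 0.119). In all 3 the groups did not overlap. Of the 38 genes, 10 lay lower and 3 higher without overlap, beside 16.2% and 9.64% of all genes tested.

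In FGF signalling, where ligands bind receptor tyrosine kinases and induce feedback inhibitors, 1 of 15 genes fell, Fgfr1, and 0 rose, beside 0.181% of all genes tested that fell, and the list median was -0.33. Fgfr2, the receptor of keratinocyte growth factors, read 179 and 165 TPM in WT and 142 and 128 TPM in NFIX-cKO (-0.35 ± 0.08, adjusted p = 0.176). The ligand gene Fgf1 read 71.8 and 60.1 against 51.1 and 53.2 TPM (-0.33 ± 0.10, adjusted p = 0.226), and the feedback inhibitor gene Spry1 read 30.8 and 30.4 against 14.8 and 26.9 TPM (-0.59 ± 0.24, adjusted p = 0.310). These 4 were among the 6 of 15 members that lay lower without overlap, beside 16.2% of all genes tested.

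In oxidative stress and glutathione metabolism, 1 of 24 genes fell, Nqo1, beside 0.181% of all genes tested, and the list median was -0.05, the same as that of all genes tested to 2 decimals. The glutathione peroxidase gene Gpx2 read 16.4 and 26.9 TPM in WT and 35.7 and 35.6 TPM in NFIX-cKO (0.73 ± 0.18, adjusted p = 0.186). Gclc, the catalytic subunit of glutamate-cysteine ligase, read 27.04 and 18.62 against 20.0 and 15.4 TPM (-0.34 ± 0.09, adjusted p = 0.207), and the glutathione transferase Gstt1 read 10.3 and 7.06 against 5.56 and 6.28 TPM (-0.47 ± 0.19, adjusted p = 0.310). Nqo1 stood apart from the other members by the size of its difference.

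Of the 27 lists with at least 5 tested members, 24 held 0 members past limma's test. The 4 described next were chosen after their values were seen, and the members named in them lie outside the naming rule. Each list is given by counts and medians, with no test of the list as a whole. DNA replication and mitosis genes were higher: 34 of 37 were higher on average, 29 lay above WT without overlap (9.64% of all genes tested), and 16 had an unadjusted p under 0.05. Of all 15434 genes tested, 6413 were higher on average and 809 were higher at that p. The list's median was 0.79, at 0.86 in the 30s pair and 0.71 in the 80s pair. Cdk1, the mitotic kinase, read 5.11 and 12.2 TPM in WT and 19.9 and 29.2 TPM in NFIX-cKO (1.48 ± 0.48, adjusted p = 0.242). Top2a, the topoisomerase of dividing cells, read 8.60 and 15.7 against 25.4 and 31.0 TPM (1.2 ± 0.39, adjusted p = 0.244), and the proliferation marker Mki67 read 2.26 and 3.45 against 6.71 and 6.29 TPM (0.98 ± 0.40, adjusted p = 0.307). The levels of these mitotic genes were thus higher in both NFIX-cKO libraries, and low in all 4 libraries beside the keratins.

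Of the replication genes, Tyms read 18.9 and 19.6 TPM in WT and 38.2 and 26.9 TPM in NFIX-cKO (0.71 ± 0.15, adjusted p = 0.153). Uhrf1, which guides maintenance DNA methylation, read 8.74 and 9.85 against 16.1 and 13.6 TPM (0.62 ± 0.14, adjusted p = 0.167). Pcna, the replication clamp, went the other way, at 237 and 246 against 168 and 232 TPM (-0.29 ± 0.14, adjusted p = 0.379). The list summed to 483 and 533 TPM in WT, 599.7 and 667 TPM in NFIX-cKO, 693 and 1101 TPM in NFIB-cKO and 593 and 667 TPM in NFIB/X-dKO. In bulk libraries, more cells in division and more RNA per dividing cell cannot be told apart.

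Immediate early and heat shock genes, which respond within minutes to stress and signals, were lower: 25 of 27 were lower on average, 14 lay below WT without overlap (16.2% of all genes tested), and the median was -0.77. The pairs differed in size, with medians of -1.24 in the 30s pair and -0.36 in the 80s pair. Jund, an AP-1 subunit, read 445 and 475 TPM in WT and 214 and 245 TPM in NFIX-cKO (-1.0 ± 0.13, adjusted p = 0.0643). Btg2, an antiproliferative immediate early gene, read 1134 and 1196 against 343 and 623 TPM (-1.33 ± 0.25, adjusted p = 0.132). Fos read 9369 and 7752 against 3802 and 7134 TPM (-0.71 ± 0.28, adjusted p = 0.293). NFIX-cKO 32 was the lowest library of all 8 by the summed list, at 15577 TPM, where the other 7 stood between 23491 and 40925 TPM.

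Lipid genes were lower chiefly in the 80s pair. In the list of sebaceous gland and fatty acid synthesis, 20 of 23 were lower on average and 12 lay lower without overlap (16.2% of all genes tested), with a median of -0.43, made of -0.19 in the 30s pair and -0.79 in the 80s pair. Fa2h, a fatty acid hydroxylase, read 32.1 and 63.3 TPM in WT and 16.6 and 31.2 TPM in NFIX-cKO (-0.96 ± 0.20, adjusted p = 0.151). The desaturase gene Scd1 read 103 and 178 against 81.5 and 64.6 TPM (-0.89 ± 0.26, adjusted p = 0.222). In cholesterol synthesis, 21 of 24 were lower on average and 11 lay lower without overlap (16.2% of all genes tested), with a median of -0.34, made of -0.04 in the 30s pair and -0.62 in the 80s pair. Insig1, a sterol-regulated brake on the pathway, read 63.6 and 68.0 TPM in WT and 33.2 and 22.2 TPM in NFIX-cKO (-1.25 ± 0.21, adjusted p = 0.117). Lss, which closes the sterol rings, read 28.3 and 24.8 against 19.5 and 16.3 TPM (-0.55 ± 0.10, adjusted p = 0.118). Markers of sebaceous gland, isthmus and interfollicular epidermis, 11 of 12 of which passed the filter, summed to 1972 and 1612 TPM in WT and 3047 and 1199 TPM in NFIX-cKO, so NFIX-cKO 32 stood above and NFIX-cKO 88 below both WT libraries. Krt10, an epidermal keratin of that list, read 1010 and 557 TPM in WT and 1596 and 395 TPM in NFIX-cKO. The part of these markers in the lipid result was not tested.

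**Figure D4:**
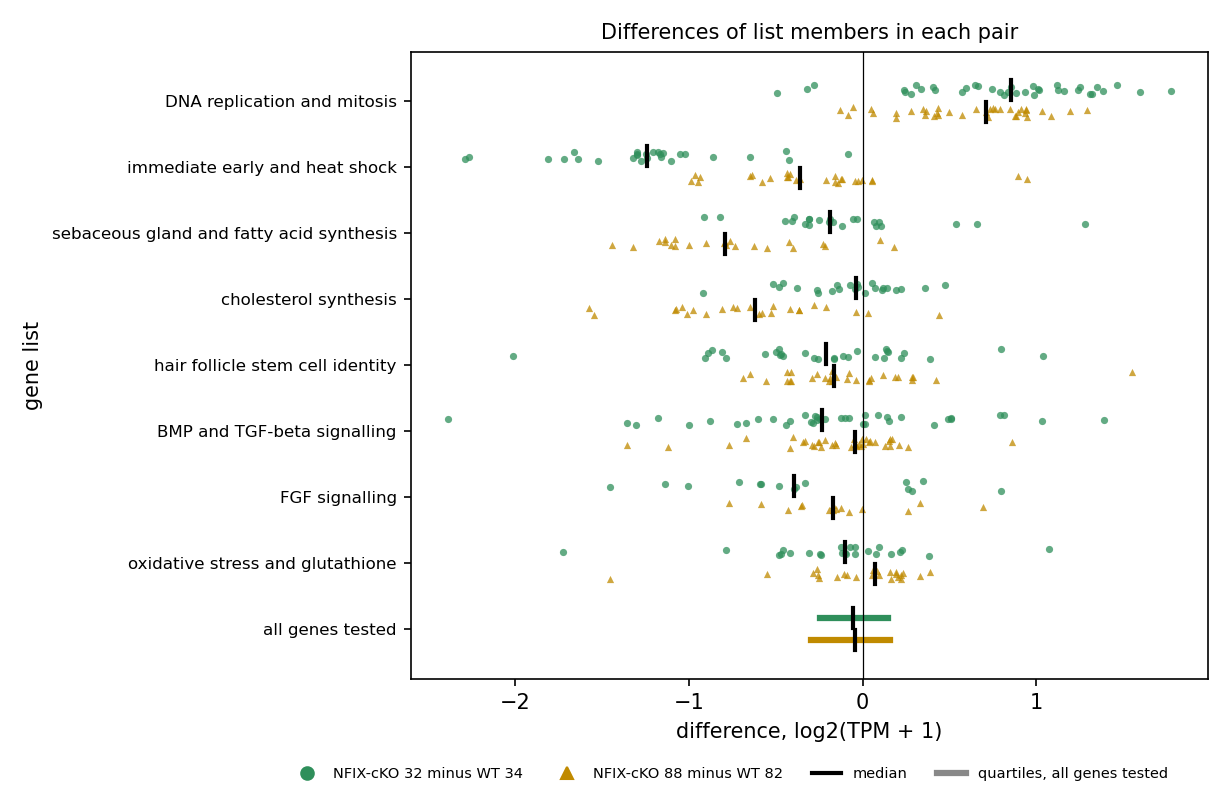
Differences of the tested members of 8 gene lists in log2(TPM + 1) on the x axis, with NFIX-cKO 32 minus WT 34 as green circles and NFIX-cKO 88 minus WT 82 as yellow triangles; black bars are medians, and the thick lines give the quartiles of all genes tested. DNA replication and mitosis lies to the right in both pairs (medians 0.86 and 0.71), immediate early genes lie furthest to the left in the 30s pair (-1.24), and the lipid lists lie to the left mainly in the 80s pair (-0.79 and -0.62).

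The inner bulge and companion layer keratin Krt17 read 1066 and 1515 TPM in WT and 3803 and 2961 TPM in NFIX-cKO, a difference of 1.40 ± 0.26 that did not pass the test (adjusted p = 0.130). In its list, 5 of 9 genes were higher and 4 lower on average, with a median of 0.02. Beside the all-gene median of -0.05, the median was 0.03 in Wnt signalling, 0.01 in axon guidance, 0.02 in basement membrane and adhesion, 0.04 in interferon response and antigen presentation and 0.07 in p53 targets. In epidermal differentiation it was 0.15, with 24 of 32 genes higher on average, and it came from the 30s pair, at 0.45 against -0.02 in the 80s pair. The median was -0.32 in the circadian clock (17 of 19 lower), -0.33 in insulin-like growth factor signalling (10 of 12 lower), -0.19 in chromatin regulators (27 of 31 lower) and -0.11 in Notch and Hedgehog signalling (14 of 21 lower). That of insulin-like growth factor signalling came from the 80s pair, at -0.66 against -0.03 in the 30s pair. In these last 4 lists 0 members passed limma's test, and 8, 5, 8 and 4 members were lower at an unadjusted p under 0.05. Of all 15434 genes tested, 1718 were lower at that p and 8997 were lower on average.

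Several of the largest differences were in pseudogenes, most of them present in 1 group and nearly absent in another. Of the 13 called, 6 were lower in NFIX-cKO. Gm6311 (chr13:75954136-75955013) read 640.4 and 443 TPM in WT and 0.94 and 0 TPM in NFIX-cKO, with 23 and 0 expected counts in the latter. It read 0.90 and 1.18 TPM in NFIB-cKO and 645 and 618 TPM in NFIB/X-dKO. Gm15487, Gm9825, Gm13443, Gm14292 and Rps2-ps10 had the same order, high in WT and NFIB/X-dKO and low in both single knockouts, and the coding gene Pde9a did too, at 0.11 and 0.27 TPM in NFIB-cKO and 4.81 and 6.27 TPM in NFIB/X-dKO.

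The other 7 called pseudogenes were higher in NFIX-cKO. Gm10093 read 0 and 0.06 TPM in WT and 19.7 and 16.1 TPM in NFIX-cKO, against 0.03 in both NFIB-cKO libraries and 21.0 and 20.3 TPM in NFIB/X-dKO. Gm10182, Gm10036, Gm12901, Gm15195 and the long non-coding gene Gm7125 shared that order, low in WT and NFIB-cKO and high in both NFIX-cKO and NFIB/X-dKO. Gm15148 was at 0 in both WT libraries and between 6.26 and 58.0 TPM in the 6 knockout libraries. Gm10157 read 4.85 and 5.23 TPM in NFIX-cKO and at most 0.04 TPM in each of the other 6 libraries. Processed pseudogenes are near copies of a parent message, and RSEM divides reads that fit several copies, so these levels are uncertain.

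**Figure D5:**
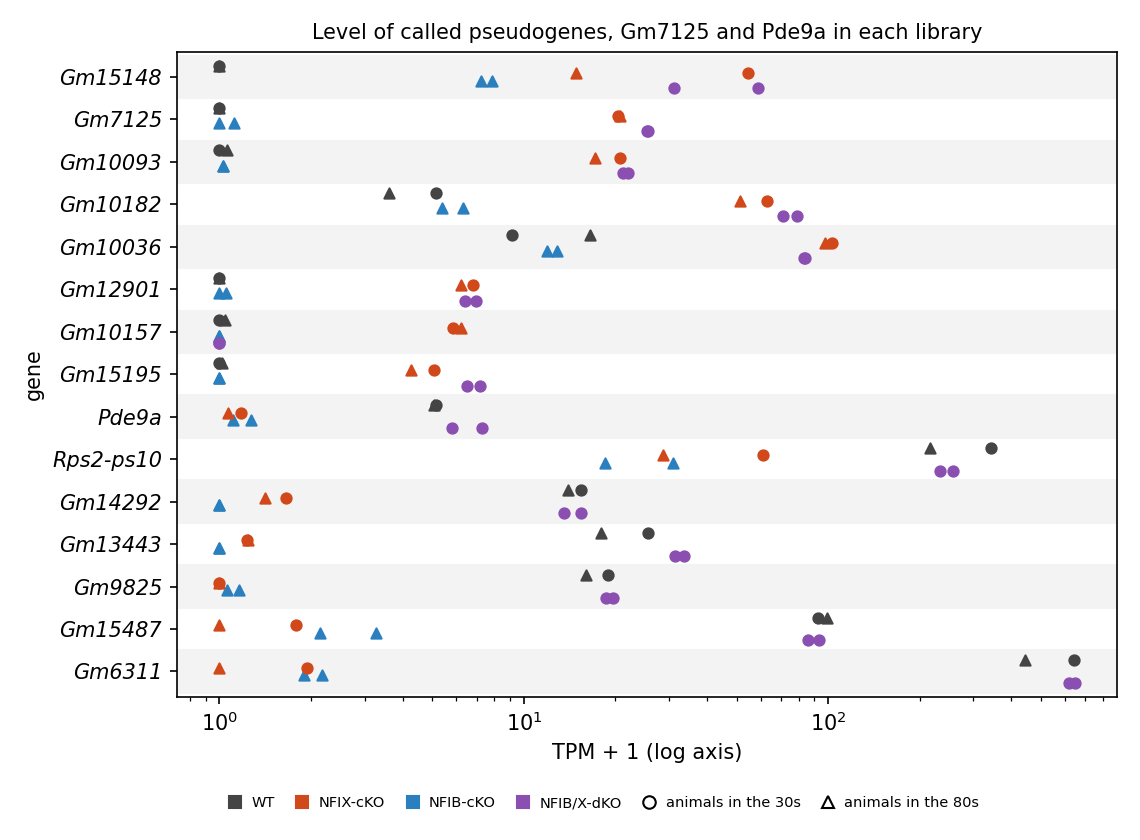
Levels of the 13 called pseudogenes, the long non-coding gene Gm7125 and the coding gene Pde9a in each library, with TPM + 1 on a log axis and 1 symbol per library. From Gm6311 up to Pde9a, WT (dark grey) and NFIB/X-dKO (purple) lie to the right and both single knockouts to the left, as for Gm6311 with 443 to 645 TPM against 0 to 1.18 TPM; above them NFIX-cKO (orange) lies to the right of WT.

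The remaining calls were long non-coding or mitochondrial. RP24-378G4.3 read 193 and 192 TPM in WT and 98.7 and 94.2 TPM in NFIX-cKO and fell by 0.99 ± 0.10 (adjusted p = 0.0369). Gm17024 and RP23-83P5.5 fell by 1.17 ± 0.10 and 1.21 ± 0.12 (adjusted p = 0.0181 and 0.0358). Yam1 rose by 2.04 ± 0.21 (adjusted p = 0.0358) with overlapping groups, at 11.3 and 184 TPM in WT and 64.3 and 594 TPM in NFIX-cKO, and it overlaps a ribosomal RNA entry, CT010467.1, by 923 bases. The transfer RNA genes mt-Tv and mt-Te fell (adjusted p = 0.0294 and 0.0471), and mt-Tv read 2.92 and 2.52 TPM in WT and was listed at 0 in all 6 knockout libraries.

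The 44 calls were then set against the other knockouts. Contrasts between knockouts have no WT group in them but share the NFIX-cKO libraries with the comparison that chose these genes. NFIB-cKO was all 80s and NFIB/X-dKO all 30s, so both contrasts rest on the series term. That term was estimated from the WT and NFIX-cKO libraries alone, so the WT libraries also enter both contrasts. Between NFIX-cKO and NFIB-cKO, 10 of the 44 differed (0.13% of all genes tested), 3 of them protein coding. Cck read 0.27 and 0.55 TPM in NFIB-cKO and was higher in NFIX-cKO by 2.34 ± 0.18 (adjusted p = 0.0186), so it was lower in NFIB-cKO than in NFIX-cKO. Mgll, at 10.1 and 9.97 TPM in NFIB-cKO, was also higher in NFIX-cKO, by 1.31 ± 0.10 (adjusted p = 0.0186). Nqo1 went the other way: NFIB-cKO read 14.9 and 14.2 TPM, and NFIX-cKO was lower by -1.37 ± 0.12 (adjusted p = 0.0316). The other 7 were Gm7125 and the pseudogenes Gm10182, Gm10093, Gm10036, Gm12901, Gm15195 and Gm10157, all higher in NFIX-cKO.

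Between NFIB/X-dKO and NFIX-cKO, 18 of the 44 differed (1.09% of all genes tested), 10 of them protein coding. In 8 of these 10 the double knockout lay further from WT in the direction of the NFIX-cKO change. Piezo2 read 54.1 and 57.7 TPM in NFIB/X-dKO, higher than in NFIX-cKO by 2.40 ± 0.19 (adjusted p = 0.0116), and Pdgfc read 82.02 and 82.79 TPM, higher by 1.56 ± 0.15 (adjusted p = 0.0168). Cck read 0.30 and 0.37 TPM, lower by -3.41 ± 0.18 (adjusted p = 0.00376), and Ngef read 0.96 and 0.73 TPM, lower by -1.40 ± 0.17 (adjusted p = 0.0324). Akr1c18, Smpdl3b, Gm13305 and Gm13306 were lower as well. Nqo1 and Pde9a went the other way: Nqo1 read 14.6 TPM in both NFIB/X-dKO libraries, higher than in NFIX-cKO by 0.87 ± 0.12 (adjusted p = 0.0463). For Nqo1 the NFIX-cKO libraries thus held the lowest levels of all 8. For Mcam, Tmem176a, Hs3st6, Ramp3, Id2, Cebpd, Arvcf, Sdk2 and Fgfr1, neither difference between NFIX-cKO and another knockout passed the test, which does not show that the knockouts act alike.

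Values of the other knockouts against WT share the WT libraries and are given side by side alone. Mcam read 11.3 and 16.5 TPM in NFIB-cKO and 9.20 and 8.93 TPM in NFIB/X-dKO. Tmem176a read 67.8 and 58.2 TPM in NFIB-cKO and 93.0 and 92.7 TPM in NFIB/X-dKO. Arvcf read 40.2 and 36.6 TPM in NFIB-cKO and 26.2 and 27.4 TPM in NFIB/X-dKO. Id2 read 335 and 319 TPM in NFIB-cKO and 219 and 257 TPM in NFIB/X-dKO, all below the WT values. Mir23a read 57.6 and 53.9 TPM in NFIB-cKO and 68.5 and 56.5 TPM in NFIB/X-dKO, all below the WT values and above those of NFIX-cKO.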

How the data were processed

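RNA of sorted hair follicle stem cells was sequenced as paired-end messenger RNA libraries, 2 in each of 4 groups. Per the submitters' processing notes the authors used RSEM 1.2.30 and Bowtie2 2.2.9 with build GRCm38 (mm10); their annotation release and use of strand are not stated in those sources. The deposited table of the series gave TPM per gene, and expected counts deposited for the 5 gene tables served for depth alone, since they did not cover WT and a count test of the comparison could not be run. Column names gave each library its animal; unmapped columns numbered 0. Titles with different animal numbers were taken as separate animals.

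TPM values were tested as log2(TPM + 1) with limma 3.58.1 (R 4.3.3) and a variance trend, over the 15434 genes of 46517 that reached 1 TPM in 2 or more libraries, with Benjamini-Hochberg adjustment over all of them. All 8 libraries shared 1 estimate of the spread, with the animal-number series (30s or 80s) as a covariate, which pairs 32 with 34 and 88 with 82; what the series stands for is not stated. Across genes, WT 34 minus WT 82 and NFIX-cKO 32 minus NFIX-cKO 88 correlated with Pearson's r of 0.472, a description over genes that are not replicates. Genes were placed by GENCODE release M21, which held 15361 of the genes tested. Without strand, reads of overlapping genes cannot be told apart.

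Named genes were the nuclear factor I genes and Esr1; the 12 largest rises and falls past the test with a mean of at least 5 TPM in the higher group and no overlap between groups, without predicted genes, pseudogenes and short RNAs; in each list holding a call, the 4 members ranked first by p; and 12 bulge regulators and markers. The comparison, lists and genes were chosen with earlier results of these data known. Alternatives were another pseudocount, filters, scaling, covariates, a fit without the variance trend and leaving out each library; fits to each animal series and to protein-coding genes alone were chosen after seeing the data. The fit was tested on simulated data. Some items are not reported here.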

Additional observations from a re-analysis of the deposited data

Results flagged for a closer look

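For 3 named genes the pairs moved in opposite directions, and the difference between pairs was not tested. The difference NFIX-cKO 32 minus WT 34 and that of NFIX-cKO 88 minus WT 82 were 0.39 and -0.088 for Tbx1, -0.084 and 0.21 for Cd34, and 0.66 and -0.49 for Krt10, in log2(TPM + 1).

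The difference NFIB/X-dKO minus NFIB-cKO was set against NFIX-cKO minus WT, the first less the second, in the same limma fit. NFIX-cKO and WT also differ in Sox9-CreER, the YFP gate and the floxed Nfib alleles, and NFIB/X-dKO and NFIB-cKO do not. A change on losing NFIX that depends on NFIB cannot be told apart from these. The contrast passed the test for 8 of the genes named, all of them calls of NFIX-cKO against WT. That difference is itself a part of the contrast, so these genes were chosen by values that enter it. The share of all genes tested that passed is not given here. For the coding genes Mgll and Pde9a the difference was 2.02 ± 0.15 (adjusted p = 0.0258) and 4.55 ± 0.32 (adjusted p = 0.0255). For the pseudogenes it was 16.1 in Gm6311 (adjusted p = 1.514e-05), 10.9 in Gm15487 (0.00218), 8.89 in Gm13443 (0.000524), 8.11 in Gm9825 (0.000524), 6.94 in Gm14292 (0.000659) and 5.17 in Rps2-ps10 (0.0336). NFIB-cKO libraries were all of the 80s series and NFIB/X-dKO libraries all of the 30s, so this contrast rests on the series term, and levels of pseudogenes are uncertain because near copies share reads.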

How the results depend on the processing

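Against 44 genes called in all, the total called was 25 without a filter on low values (15 of them among the 44), 23 without the series covariate (all among the 44; 56.5% higher, against 36.4%), 8 with the 4 compared libraries alone (5 among the 44), 1 with the series as a replicate block in those 4, 0 in the 30s alone, 0 in the 80s alone, and 7 to 19 when a library was left out (7 to 17 among the 44). The total was 36 with a pseudocount of 0.1, 40 with median-of-ratios scaling, 47 with at least 5 TPM, 39 without the variance trend and 36 over protein-coding genes alone. All 44 kept their direction wherever they were tested. Testing protein-coding genes alone, all 21 coding calls remained and Jund also passed; with at least 5 TPM, Gm26532 did. The 10 calls that also differed from NFIB-cKO became 5, and the 18 that differed from NFIB/X-dKO became 10, without a filter on low values. Directions reversed for Tbx1 (-0.088, in the 80s alone; -0.088 to 0.39 as a library was left out), Cd34 (-0.084, in the 30s alone; -0.084 to 0.21) and Krt10 (-0.49, in the 80s alone; -0.49 to 0.66), the low values without WT 34 or NFIX-cKO 32 for Tbx1 and Krt10 and without WT 82 or NFIX-cKO 88 for Cd34. The cause of these changes was not tested. Replicate numbers pair the libraries only through the series, with 2 pairs. WT depth was unknown, so counting error could not be given for WT, and coding calls rested on as few as 4 expected counts in NFIX-cKO 88.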
